A study of Mus musculus with 2 samples.

Results

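Endothelial cells of the mouse heart that carried transcripts of interferon-gamma-inducible genes but little or no MHC class II transcript were examined in single-cell RNA sequencing data. A cell is represented by a barcode, and a UMI is 1 counted molecule. A barcode was kept with at least 500 detected genes and at most 10% mitochondrial UMIs. It counted as endothelial with at least 4 UMIs of Pecam1, Cdh5, Egfl7 and Cldn5 together, and more of these than of the fibroblast genes Pdgfra, Dcn, Col1a1 and Col3a1. It was selected when at least 4 of the 6 genes Gbp4, Igtp, Tgtp2, Ubd, Cxcl9 and Cd274, and at most 1 of the 4 class II genes Cd74, H2-Ab1, H2-Aa and H2-Eb1, had a UMI. Of 10427 deposited barcodes, 6235 were endothelial and 645 were selected, 592 in the library of db/+ mice and 53 in the library of db/db mice given 1% salt. The barcodes were selected on the measured values of these genes, so the levels of those genes are a description.

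The db allele is a mutation of the leptin receptor, carried on 1 chromosome in db/+ and on both in db/db, whose mice are known for obesity and diabetes. The db/db mice received 1% salt, and the series title names the combination as an HFpEF model, that is, of heart failure in which the ejection fraction is preserved. Neither salt for the db/+ mice nor the age of the mice is stated by the labels. Both groups are male hearts, 4 per genotype, digested with collagenase and depleted of cardiomyocytes and CD45-positive leukocytes. Each group is 1 library, of 44935235 UMIs in db/+ and 40974634 UMIs in db/db with salt, barcodes cannot be assigned to single hearts, and genotype and salt cannot be told apart. With no replicates, nothing was tested. A level is the UMI sum of a gene over a group of barcodes divided by all UMIs of that group, per 1000000 (CPM), with an exact Poisson 95% interval, and shares have exact Clopper-Pearson 95% intervals. Both intervals cover counting error only.

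Interferon-gamma binds its receptor, made of Ifngr1 and Ifngr2, and signals through the kinases Jak1 and Jak2 to gamma-activated sites in the DNA. The induced factor Irf1 binds interferon-stimulated response elements, the kind of element that type I interferons also reach, with Stat2 and Irf9. The response covers guanylate-binding proteins (Gbp genes) and immunity-related GTPases (Igtp, Irgm1, Irgm2, Tgtp1, Tgtp2, Iigp1), which act on membranes around intracellular pathogens, and the chemokines Cxcl9 and Cxcl10, which attract T cells. It also covers the checkpoint ligand Cd274 (PD-L1), the ubiquitin-like modifier Ubd (FAT10) and antigen presentation. Class I is under the co-activator Nlrc5 and class II under Ciita.

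Promoters of the genes that mark these barcodes are shown because 4 immunity-related GTPases, Igtp, Irgm2, Tgtp1 and Tgtp2, share 1 arrangement of both elements. The sequences are the 250 bases before the annotated start, 5′ to 3′ on the gene's strand, from the RefSeq promoter table of GRCm38.p6. Capitals mark matches, on either strand, to TTCNNNGAA (a gamma-activated site) or to GAAA, any 2 bases and GAAA again (an interferon-stimulated response element). The kinds do not overlap each other in the windows shown. Igtp, Irgm2, Tgtp1 and Tgtp2 hold the pair. Gbp7 holds 2 of the former and 1 of the latter. Isg15, a ubiquitin-like type I interferon target, holds 3 overlapping response elements. Cxcl9 is shown as a gene of the selection rule with neither pattern.
Igtp: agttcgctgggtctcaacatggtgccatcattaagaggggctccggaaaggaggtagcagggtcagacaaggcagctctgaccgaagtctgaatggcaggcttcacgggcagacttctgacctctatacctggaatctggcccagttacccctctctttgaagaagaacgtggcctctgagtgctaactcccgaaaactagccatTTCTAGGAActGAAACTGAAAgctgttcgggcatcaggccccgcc
Irgm2: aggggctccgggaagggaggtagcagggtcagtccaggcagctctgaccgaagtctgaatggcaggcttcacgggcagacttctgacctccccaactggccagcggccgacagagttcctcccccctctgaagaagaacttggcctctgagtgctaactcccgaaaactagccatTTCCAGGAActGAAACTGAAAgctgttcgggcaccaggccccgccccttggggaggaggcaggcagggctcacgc
Tgtp1: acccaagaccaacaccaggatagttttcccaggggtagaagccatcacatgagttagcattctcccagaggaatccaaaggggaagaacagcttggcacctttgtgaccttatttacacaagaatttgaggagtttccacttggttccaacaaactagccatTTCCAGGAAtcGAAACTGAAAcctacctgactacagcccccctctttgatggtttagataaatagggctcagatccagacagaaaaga
Tgtp2: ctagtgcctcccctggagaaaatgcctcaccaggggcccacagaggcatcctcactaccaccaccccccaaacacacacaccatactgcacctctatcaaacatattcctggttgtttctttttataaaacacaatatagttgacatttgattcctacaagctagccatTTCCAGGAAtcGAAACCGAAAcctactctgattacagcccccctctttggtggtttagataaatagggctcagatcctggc
Gbp7: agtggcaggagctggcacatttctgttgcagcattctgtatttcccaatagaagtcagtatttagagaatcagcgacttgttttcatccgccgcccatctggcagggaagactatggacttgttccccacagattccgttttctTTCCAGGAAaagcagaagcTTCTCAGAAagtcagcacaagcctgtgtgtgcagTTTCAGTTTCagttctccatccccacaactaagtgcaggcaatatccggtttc
Isg15: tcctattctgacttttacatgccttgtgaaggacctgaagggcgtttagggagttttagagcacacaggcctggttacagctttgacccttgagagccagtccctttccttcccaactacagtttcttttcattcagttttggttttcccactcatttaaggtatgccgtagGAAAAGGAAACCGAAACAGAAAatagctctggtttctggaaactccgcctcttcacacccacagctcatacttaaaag
Cxcl9: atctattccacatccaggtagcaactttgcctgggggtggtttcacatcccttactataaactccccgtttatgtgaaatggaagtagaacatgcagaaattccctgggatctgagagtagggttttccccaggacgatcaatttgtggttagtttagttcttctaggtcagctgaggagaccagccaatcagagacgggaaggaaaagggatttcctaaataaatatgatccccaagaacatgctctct

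The windows lie at chr11:58199306-58199555 (plus strand) for Igtp, chr11:58214727-58214976 (plus) for Irgm2, chr11:48992247-48992496 (minus) for Tgtp1 and chr11:49064213-49064462 (minus) for Tgtp2. Those of Gbp7, Isg15 and Cxcl9 lie at chr3:142530086-142530335 (plus), chr4:156200819-156201068 (minus) and chr5:92328080-92328329 (minus). In Igtp, Irgm2, Tgtp1 and Tgtp2 the response element begins 11 bases after the gamma-activated site, so that 2 bases lie between them. The site begins 45 bases before the start in Igtp, 75 in Irgm2, 88 in Tgtp1 and 81 in Tgtp2. In the 300-base windows of the table, which run 50 bases past the start, this arrangement was in 5 of 27025 genes (0.0185%), namely these 4 and Gm12185. Tgtp1 and Tgtp2 are near-identical copies, so their windows and their UMIs are not independent of each other. The windows of Igtp and Irgm2 share long stretches of sequence around the pair, so they are not independent either. A match describes letters and is not a measured binding site.

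The selected barcodes made up 592 of 3402 endothelial barcodes of db/+ (17.4%, 16.1 to 18.7) and 53 of 2833 of db/db with salt (1.87%, 1.40 to 2.44). In db/+ 310 of them had 4 of the 6 genes, 210 had 5 and 72 had all 6. In db/db with salt 46 had 4, 7 had 5 and 0 had 6. Just outside the rule, with 3 of the 6 genes and the class II limit met, lay 351 and 185 endothelial barcodes. No gap lay at the 4-gene limit, so the barcodes are described as a range of this count, and whether they are a separate cell type was not tested. Of the 592, 518 had no class II gene at all, and all 53 of db/db with salt had none. On the other side of the class II limit, 207 endothelial barcodes of db/+ and 1 of db/db with salt had at least 4 of the 6 genes and 2 or more class II genes.

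The rule counts detected genes and so follows depth. The selected barcodes had a median of 10611.5 UMIs in db/+ and 16404 in db/db with salt, against 5207 and 5773.5 in the other endothelial barcodes. Over 4 equal bins of endothelial barcodes by total UMIs, from shallow to deep, their shares were 5.87%, 11.1%, 18.5% and 34.2% in db/+, and 0.282%, 0.423%, 1.13% and 5.65% in db/db with salt. In each bin db/+ was higher, with intervals that did not overlap. These intervals cover counting error within 1 library per group and not differences between mice. When every barcode was thinned to 1500 UMIs before the rule was applied, the shares were 54 of 2788 (1.94%, 1.46 to 2.52) and 1 of 2484 (0.0403%, 0.00102 to 0.224). Of endothelial barcodes chosen at full depth, 152 and 85 were shallower than 1500 UMIs and left out of the thinned counts. With at least 2 of the 6 genes required after thinning, and the class II limit at full depth, 16.6% of db/+ and 2.95% of db/db with salt endothelial barcodes passed. Fibroblast barcodes serve as the background, and without a class II limit 1.02% and 0.0823% of them passed. At full depth 20 of 1402 fibroblast barcodes of db/+ (1.43%) and 2 of 1227 of db/db with salt (0.163%) had at least 4 of the 6 genes. The fibroblast barcodes had median depths of 9635.5 and 11993 UMIs. With the class II limit added, 12 of 1402 (0.856%) and 2 of 1227 (0.163%) remained.

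**Figure D1:**
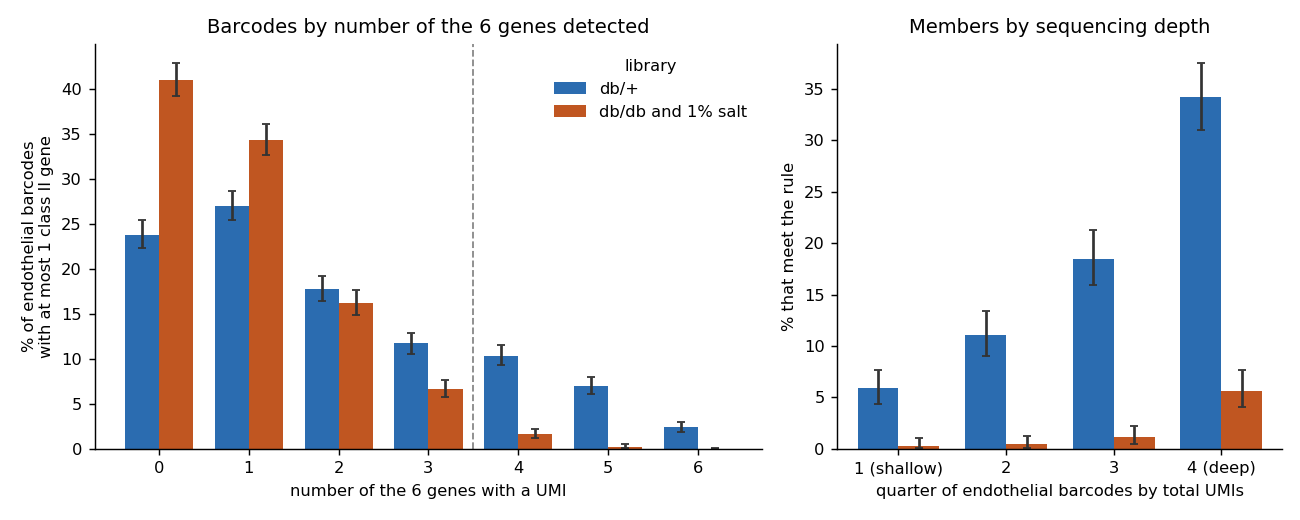
Left, share of endothelial barcodes with at most 1 class II gene (y axis, %) by number of the 6 genes with a UMI (x axis), in db/+ (blue) and db/db and 1% salt (orange), with the rule's limit dashed. Right, share of all endothelial barcodes that meet the rule (y axis, %) by bin of total UMIs (x axis, 1 shallow to 4 deep), from 5.87% to 34.2% in db/+ and from 0.282% to 5.65% in db/db and 1% salt. Bars are shares, whiskers are exact binomial 95% intervals.

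The 8 endothelial genes the rule did not use (Tie1, Tek, Kdr, Flt1, Emcn, Esam, Ptprb and Cd93) summed to 6190 CPM in the selected barcodes and 6521 CPM in the other endothelial barcodes of db/+, so the endothelial label held by markers outside the rule. Scrublet, a doublet caller, marked 64 of 4948 kept barcodes of db/+ (1.29%) and 50 of 4144 of db/db with salt (1.21%), none of them among the selected barcodes. The expected rates set for the caller were 3.96% and 3.32%, so it marked fewer than that. The libraries share 7 barcode sequences, none of them selected.

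The 6 genes of the rule differed in how far they set the barcodes apart. Gbp4 (chr5:105115767-105139586 in GRCm38), a guanylate-binding protein, was at 384 CPM (370 to 399) in the selected barcodes of db/+ and 198 CPM in the others, and at 129 and 61.5 CPM in db/db with salt. Igtp (chr11:58199556-58207591) was at 258 and 115 CPM in db/+ and 78.3 and 23.5 CPM in db/db with salt. Tgtp2 (chr11:49057194-49064206) was at 112 and 34.5 CPM, and at 40.2 and 8.20 CPM. Each of these GTPases was higher in the selected than in the other barcodes in both libraries, which the selection on these genes favours. Each was also higher in db/+ than in db/db with salt in both kinds of barcode.

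Cxcl9 (chr5:92321347-92328079) was at 428 CPM in the selected barcodes of db/+ and 194 CPM in the others, and at 137 and 48.6 CPM in db/db with salt. Its UMIs were unevenly spread, with a median of 2 and a highest value of 104 UMIs over the 592 barcodes. Cd274 (chr19:29367455-29388095) was at 166 and 57.9 CPM in db/+ and at 86.8 and 33.7 CPM in db/db with salt. Ubd (chr17:37193892-37196095) was at 51.7 CPM (46.7 to 57.1) in the selected barcodes of db/+ and 11.2 CPM in the others. In db/db with salt Ubd had 0 UMIs in the 53 selected barcodes, which by a limit of 3 UMIs for a count of 0 allows up to 3.17 CPM, and 1 UMI in the 2780 others. Ubd is therefore the 1 gene of the rule that could not serve it in db/db with salt, where the rule in effect asked for 4 of 5 genes.

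Beyond the rule's own genes, the selected barcodes of db/+ carried more transcript of other interferon-inducible GTPases, of class I antigen presentation and of type I interferon targets than the other endothelial barcodes of the same library, and less of arterial genes. Over 8314 genes with a mean of at least 10 CPM, 43 were at least 1.5-fold higher (0.517%) and 114 at least 1.5-fold lower (1.37%), as log2 of CPM plus 10, and the median log2 ratio was -0.0059. The scale understates ratios of low genes. All genes come from the same barcodes as the rule, so these ratios are a description of the selection.

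Of the 21 interferon-gamma-inducible GTPases listed, 14 were measured outside the rule, 11 were higher and 0 lower, with a median log2 ratio of 0.74. Iigp1, an immunity-related GTPase, was at 1039 CPM (1016 to 1063) in the selected barcodes and 463 CPM (454 to 473) in the others, a log2 ratio of 1.15. Over the 592 barcodes Iigp1 ranged from 0 to 183 UMIs with a median of 10. Tgtp1 was at 46.9 and 21.7 CPM (0.85), Gbp2 at 457 and 251 CPM (0.84) and Gbp7 at 754 and 418 CPM (0.84). The GTPases of this list resemble each other in sequence, and how the authors' counting divided reads among copies was not stated by the labels. Apol10b, an apolipoprotein L family gene, stood at 188 and 97.3 CPM (0.89), and Ifi204, a DNA-sensing family member, at 55.2 and 26.9 CPM (0.82).

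Class I presentation was higher by a smaller ratio. Of 23 measured class I and peptide processing genes, 3 were at least 1.5-fold higher and 0 lower, with a median of 0.39. They were Tap1, which carries peptides into the endoplasmic reticulum (228 and 119 CPM, 0.89), Psmb9, an immunoproteasome subunit (449 and 286 CPM, 0.63), and the co-activator Nlrc5 (30.5 and 15.0 CPM, 0.70). The immunoproteasome subunit Psmb8 was at 673 and 454 CPM (0.56). The heavy chains and their partner B2m were abundant in both kinds of barcode, with B2m at 3980 and 2931 CPM, H2-K1 at 2572 and 1976 CPM and H2-D1 at 4640 and 3585 CPM. The chaperones Calr, Pdia3 and Canx, which serve glycoprotein folding at large, had 436 and 433, 363 and 375, and 203 and 223 CPM. Per barcode, the class I list took a median of 1.88% of UMIs in the selected barcodes (0.468 to 5.21) and 1.11% in the others (0.126 to 5.60), so the ranges overlapped nearly in full. The GTPase list took 0.400% and 0.109%.

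Few signal transduction genes passed 1.5-fold. Of 19 measured receptor, JAK-STAT and IRF genes, 2 were higher and 0 lower, with a median of 0.18. Among the higher ones was Batf2, an inducible transcription factor, at 24.1 CPM in the selected barcodes and 12.7 CPM in the others (0.59). Just under 1.5-fold lay Stat2 at 107 and 68.2 CPM (0.58) and Irf1 at 192 and 128 CPM (0.55). The receptor chains Ifngr1 and Ifngr2 stood at 306 and 292 CPM and at 74.1 and 58.1 CPM, and the kinases Jak1 and Jak2 at 243 and 220 CPM and at 42.8 and 48.4 CPM. None of these receptor chains and kinases passed 1.5-fold.

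Of 7 measured chemokines and decoy receptors outside the rule, 2 were higher and 1 lower, with a median of 0.056. Cxcl10 was at 97.9 and 21.8 CPM, a log2 ratio of 1.76. It had UMIs in 12.3% of the selected barcodes, and 1 barcode held 248 of the 738 UMIs. Without that barcode the ratio was 1.24. Ccl2, a monocyte chemokine, was at 34.1 and 18.5 CPM (0.63), and 99 of its 257 UMIs came from 1 barcode, without which the ratio was 0.13. The lower gene was Ackr3, a scavenging chemokine receptor (101 and 158 CPM, -0.59). Of 8 measured leukocyte adhesion genes 0 passed 1.5-fold, with a median of 0.014 (Vcam1 92.0 and 132 CPM, Icam1 100.5 and 95.7 CPM).

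Of 8 measured T cell ligands other than Cd274, 0 passed 1.5-fold, with a median of 0.17, and the death ligand Tnfsf10 came nearest at 247 and 167 CPM (0.54). Of 13 cell death and inflammasome genes 0 passed, with a median of 0.17 (Casp4 39.0 and 27.4 CPM, 0.39). Of 11 interferon-linked enzymes outside the rule 1 was higher, Wars, the tryptophanyl-tRNA synthetase (292 and 185 CPM, 0.63), and the list median was 0.38. Ido1, which degrades tryptophan, was low in both, at 11.9 and 8.16 CPM.

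Type I interferon targets were also higher. Of 27 measured antiviral genes, 10 were higher and 0 lower, with a median of 0.51. Ifit2 and Ifit3, which bind viral RNA, were at 259.5 and 133 CPM and at 186 and 93.5 CPM (0.92 each). Rsad2 (viperin) was at 732 and 405 CPM (0.84) and Ifit3b at 77.3 and 38.6 CPM (0.84). With UMIs in at least 3 of Ifit1, Ifit2, Ifit3, Isg15, Rsad2 and Oasl1 counted as a type I pattern, 410 of the 592 selected barcodes (69.3%, 65.4 to 73.0) and 929 of 2810 others (33.1%, 31.3 to 34.8) had it. These shares follow depth. After thinning to 1500 UMIs, a UMI of Isg15 was found in 28.3% and 20.3% and of Ifit1 in 14.0% and 10.1%.

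**Figure D2:**
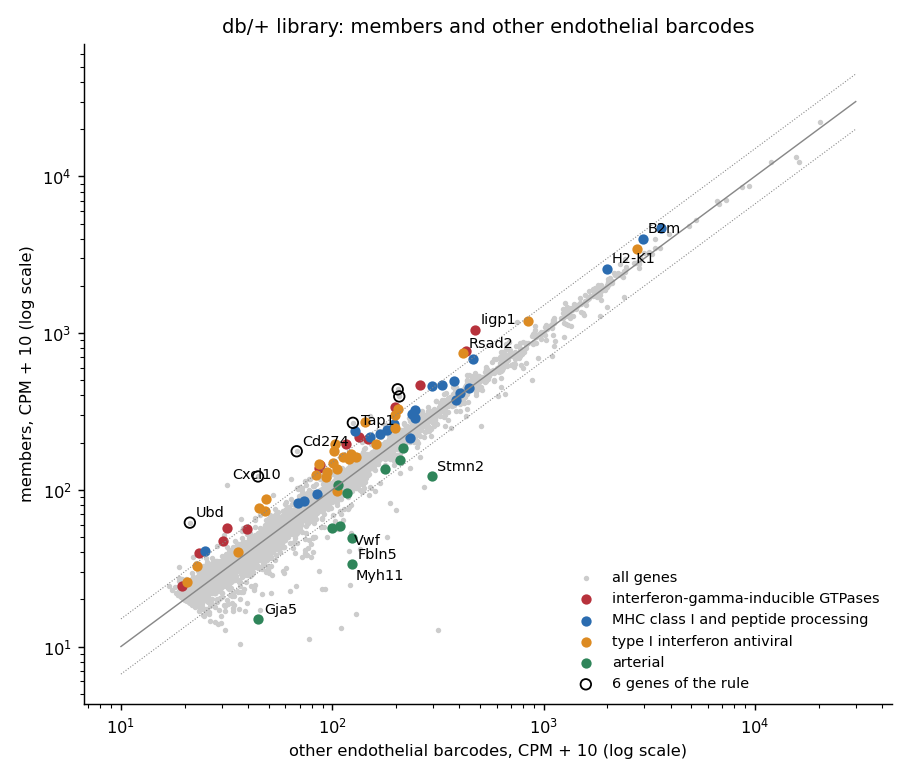
CPM plus 10 of each gene in the 2810 other endothelial barcodes (x axis) and the 592 selected barcodes, called members in the plot (y axis), db/+ library, both axes on a log scale. The solid line marks equal levels and the dotted lines 1.5-fold. The GTPases (red) lie above the diagonal with Iigp1 at 1039 against 463 CPM, the arterial genes (green) below it with Fbln5 at 23.6 against 114 CPM, and the open circles are the genes that chose the barcodes.

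Among the lower genes were those of large vessels. Of 11 measured arterial genes, 6 were lower and 0 higher, with a median of -0.81. Fbln5, an elastic fibre protein, was at 23.6 CPM (20.3 to 27.3) in the selected barcodes and 114 CPM (109 to 119) in the others, a log2 ratio of -1.88. The gap junction gene Gja5 stood at 4.91 and 34.7 CPM (-1.59), the guidance factor Sema3g at 39.2 and 114 CPM (-1.34) and Stmn2 at 112 and 285 CPM (-1.27). Of 7 measured venous genes 3 were lower and 0 higher, with a median of -0.47. They were Vwf (30.8 and 109 CPM, -1.55), Lrg1 (6.76 and 23.8 CPM, -1.01) and the venous factor Nr2f2 (65.4 and 108 CPM, -0.65). The others include the class II-positive barcodes, against which the venous list was also lower. Without the class II limit of the rule Nr2f2 was no longer lower. The part of this limit in the venous differences was not tested. Of 12 measured vascular tone genes 2 were lower, Ptgs1 (21.5 and 50.4 CPM, -0.94) and the angiotensin-converting enzyme Ace (20.4 and 48.1 CPM, -0.93), with a median of -0.28.

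Capillary identity was close in both kinds of barcode. Of 13 measured capillary and fatty acid uptake genes 0 passed 1.5-fold, with a median of 0.12. The lipase anchor Gpihbp1 was at 1851 and 1625 CPM, lipoprotein lipase (Lpl) at 1101 and 906 CPM and the capillary factor Tcf15 at 745 and 628 CPM. Of 11 angiogenic, 11 junction, 7 retinoic acid, 11 proliferation, 13 early response and 14 respiratory chain genes measured, 0 passed 1.5-fold, with medians between -0.12 and 0.094. Of 10 hypoxia and glycolysis genes 1 was higher, Pfkfb3, an activator of glycolysis (47.2 and 27.8 CPM, 0.60).

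Markers of several other cell types were lower too, but not those of all. Smooth muscle markers summed to 87.1 CPM in the selected barcodes and 412 CPM in the others, with Myh11 at 14.6 and 111 CPM (-2.30), Acta2 at 40.3 and 172 CPM (-1.85) and Tagln at 32.0 and 126 CPM (-1.69). Lymphatic markers summed to 129 and 285 CPM, endocardial markers to 39.2 and 95.6 CPM, erythroid markers to 2416 and 3721 CPM and pericyte markers to 1182 and 1457 CPM. Without the barcodes that held at least 3 UMIs of Myh11, Acta2 and Tagln (24 and 140), the arterial median was -0.58 and the GTPase median 0.76. Clusterin (Clu, 13.1 and 79.3 CPM, -1.95), elastin (Eln, 20.4 and 76.3 CPM) Fbln2 (94.1 and 260 CPM, -1.38), the protease Prss23 (12.6 and 53.1 CPM, -1.48), ceruloplasmin (Cp, 14.3 and 57.6 CPM, -1.47) and Igfbp5 (63.8 and 191 CPM, -1.45) were also lower, and the part of other cells' transcripts in these was not tested. Leukocyte markers summed to 10.6 and 9.28 CPM, 9 of 18 were at 0 in the selected barcodes, and 3 of the 592 had a UMI of Ptprc (CD45).

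Which barcodes serve as the comparison changed the size of the differences. The others included class II-positive barcodes, which carried the same interferon genes at high levels. Against the others with at most 1 class II gene, 86 genes were higher and 70 lower, the GTPase median was 1.25, the class I median 0.66 and the arterial median -0.47. Against others with 0 or 1 of the 6 genes, 115 genes were higher, the GTPase median was 1.63 and the class I median 0.82. Against others matched 1 to 1 on total UMIs, these medians were 0.60 and 0.37, and the arterial median was -0.92. In each of these comparisons both interferon lists were higher and the arterial list lower.

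**Figure D3:**
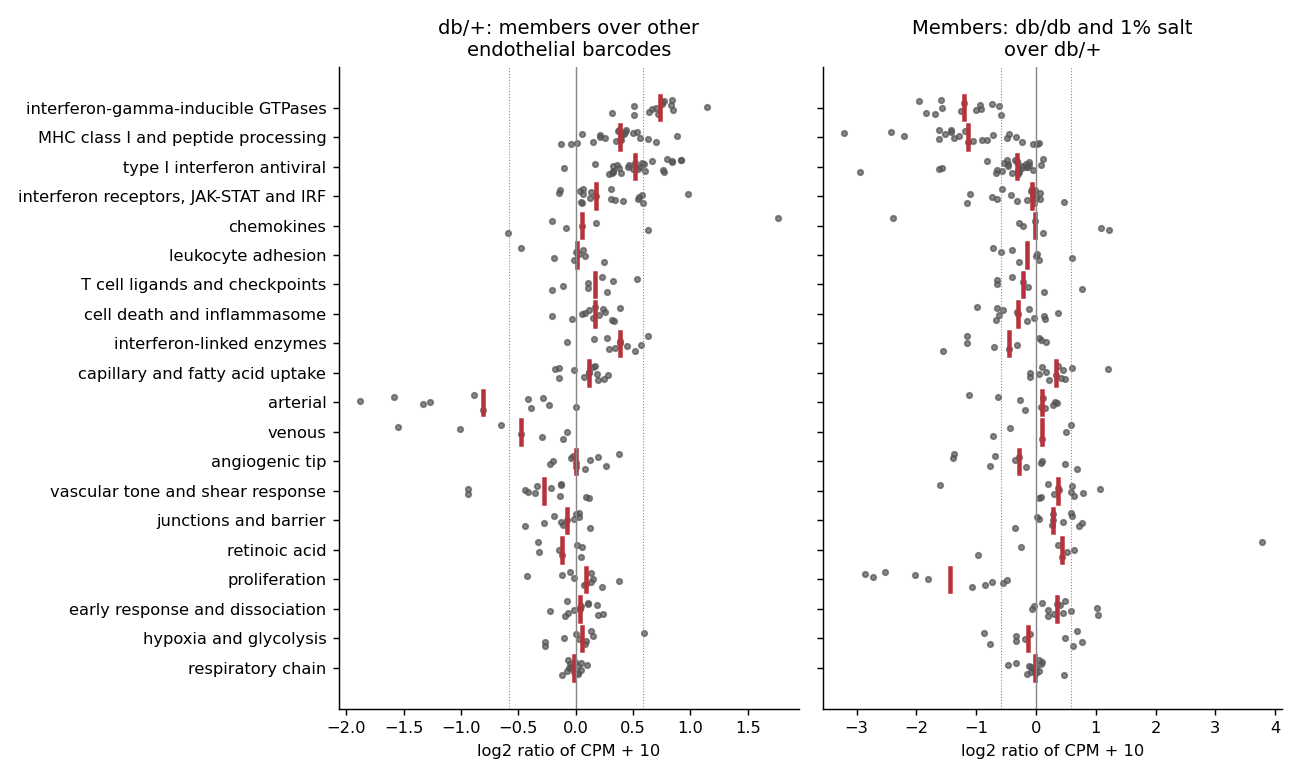
Log2 ratio of CPM plus 10 for each measured gene (grey points) by gene list, with the list median as a red bar and 1.5-fold as dotted lines. Left, selected barcodes (members) over other endothelial barcodes in db/+, where the GTPase median is 0.74 and the arterial median -0.81. Right, selected barcodes of db/db and 1% salt over those of db/+, where the GTPase median is -1.20 and the class I median -1.13.

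Gene levels followed the number of the 6 genes detected, again among endothelial barcodes with at most 1 class II gene. In db/+ from 0 to 6 genes, B2m stood at 1981, 2290, 2671, 3106, 3589, 4206 and 4541 CPM. Tap1 went from 36.6 to 260 CPM and Iigp1 from 96.7 to 1301 CPM, each higher in every successive group. Isg15 was highest at 5 genes, with 368 CPM, and was at 256 CPM at 6 genes, and Ifit1 had the same shape with 218 and 111 CPM. The arterial gene Fbln5 stood at 154, 105, 62.0, 49.0, 43.0, 8.03 and 5.65 CPM, while the capillary enzyme Car4 kept between 257 and 303 CPM. The median depth of these groups grew from 3551 to 15259.5 UMIs.

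In db/db with salt the same ordering gave a flatter picture for class I. From 0 to 5 genes B2m stood at 1204, 1292, 1299, 1387, 1439 and 1677 CPM, and Tap1 stayed between 22.9 and 46.3 CPM. H2-Q7, a class Ib heavy chain, stayed between 33.6 and 69.6 CPM, where db/+ went from 151 to 598 CPM. Ifit1 went from 18.8 CPM at 0 genes to 184 CPM at 4 genes and 174 CPM at 5 genes. The group with 5 genes held 7 barcodes. H2-Q7 and H2-Q6 are near-identical copies, so how their UMIs divide is uncertain.

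**Figure D4:**
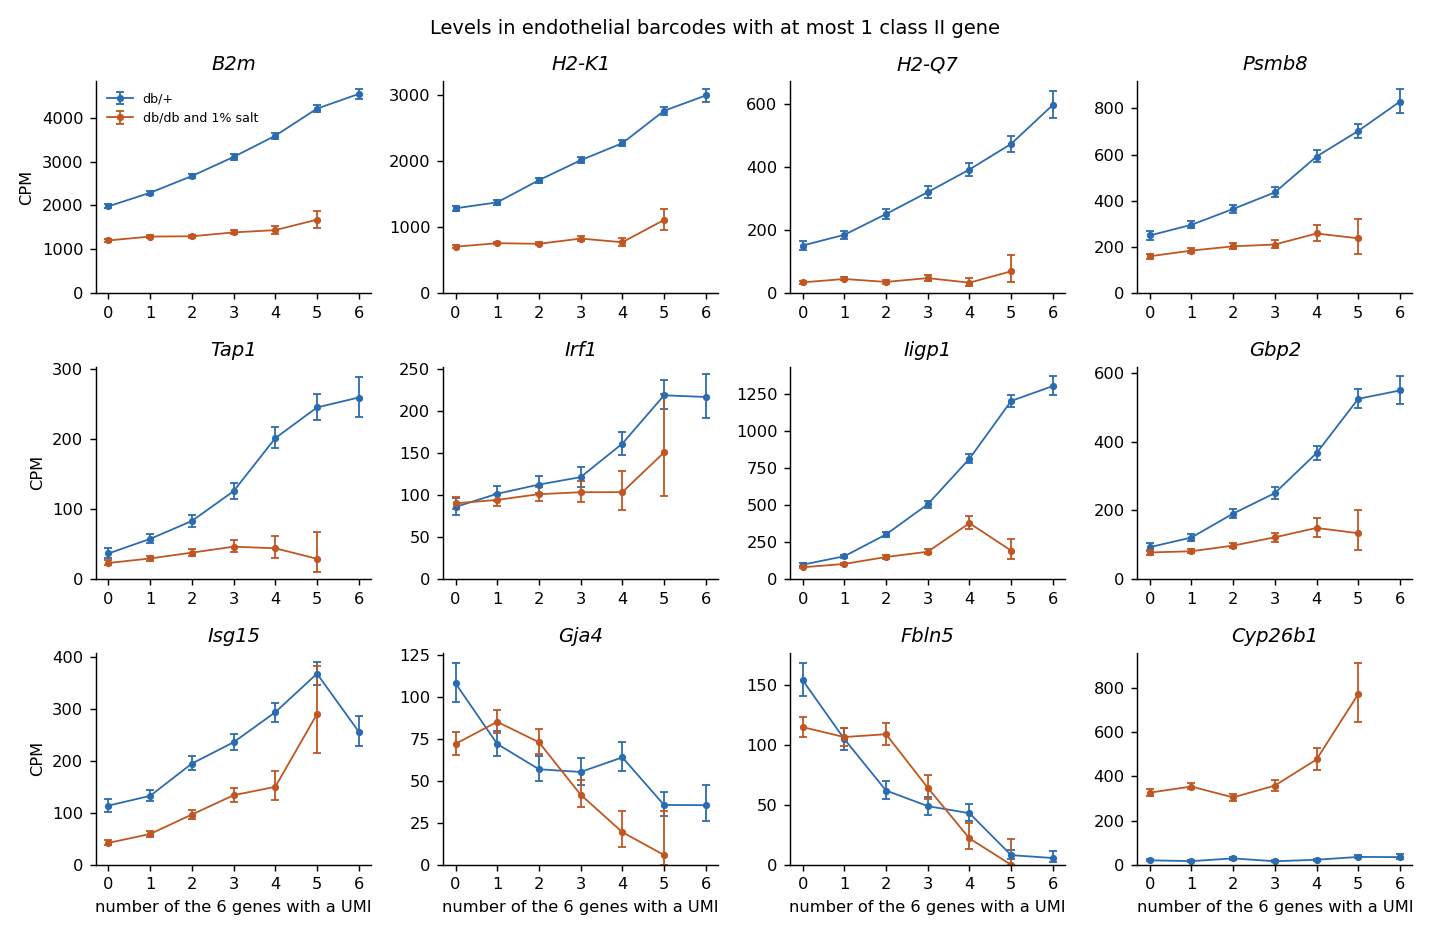
CPM (y axis, linear, from 0) of 12 genes in endothelial barcodes with at most 1 class II gene by number of the 6 genes with a UMI (x axis), in db/+ (blue, 0 to 6) and db/db and 1% salt (orange, 0 to 5), with exact Poisson 95% intervals. B2m goes from 1981 to 4541 CPM in db/+ and from 1204 to 1677 CPM in db/db and 1% salt, Fbln5 goes down in both, and Cyp26b1 is higher in db/db and 1% salt at every number.

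The class II-positive barcodes with the same interferon genes (207, db/+) differ from the selected ones by the class II limit of the rule. Over 8386 genes, 75 were at least 1.5-fold higher in the selected barcodes (0.894%) and 226 lower (2.69%). By the rule the 4 class II genes were nearly absent from the selected barcodes (13.1 against 2246 CPM in sum). Of 14 listed class II pathway genes 5 were measured outside the rule, and 3 of these were lower and 0 higher (median -1.58). The co-activator Ciita was at 1.06 CPM (0.458 to 2.09) against 23.04 CPM. The peptide editors H2-DMb1 and H2-DMa were at 0.796 against 57.8 CPM (-2.65) and 2.25 against 60.7 CPM (-2.53). The other 2, the constitutive regulators Rfxap and Rfxank, were at 68.0 against 51.8 CPM and 11.9 against 10.8 CPM.

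The selected barcodes also had less class I (median -0.39, 1 of 23 lower) and GTPase transcript (-0.34, 1 of 15 lower) than the class II-positive ones, with type I targets level (median 0.00026, 1 of 28 lower). Venous genes were lower (median -1.43, 5 of 8), with Nr2f2 at 65.4 against 171 CPM and Vcam1 at 92.0 against 354 CPM. Arterial genes were lower too (-0.98, 6 of 11), with 1 higher. Angiogenic genes were higher in the selected barcodes (median 0.67, 7 of 11), with Apln at 98.4 against 52.1 CPM and Esm1 at 21.7 against 6.28 CPM. Gja1 (162 against 61.6 CPM, 1.26), Car4 (267 against 121 CPM, 1.08), the fatty acid hydroxylase Cyp4b1 (171 against 76.9 CPM, 1.06) and inducible nitric oxide synthase Nos2 (83.1 against 38.3 CPM, 0.95) were among the highest ratios. Barcodes were found at every number of class II genes, with more at both ends, and the class II limit lies beside the lowest count. By number of class II genes from 0 to 4, with at least 4 of the 6 interferon genes, 518, 74, 36, 45 and 126 barcodes of db/+ were found, the limit lying between 74 and 36. B2m stood at 3976, 4005, 4162, 4529 and 4756 CPM over these numbers, and Car4 at 283, 176, 189, 159.5 and 88.8 CPM. Smooth muscle markers summed to 87.1 against 519 CPM here, and leukocyte markers to 10.6 against 33.2 CPM, and their part in these differences was not tested.

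Against 929 type I-pattern endothelial barcodes that were not selected, 8 of 8319 genes were higher (0.0962%) and 108 lower (1.30%). The 929 were not held to the class II limit, and 699 of them had at most 1 class II gene. The part of the class II-positive ones in the differences of this comparison was not tested. The type I list itself was close, with a median of 0.12 and 0 of 28 genes past 1.5-fold. The higher genes included Iigp1 (1039 against 602 CPM, 0.78), Apol10b (188 against 113 CPM, 0.69) and Cxcl10 (97.9 against 34.4 CPM, 1.28, or 0.76 without the barcode with the most UMIs). The GTPase median was 0.39, with 2 of 15 higher, and the class I median 0.22, with 0 of 23. Within the selected barcodes, the 410 with the type I pattern had Ifit1 at 203 CPM and the 182 without it 9.27 CPM, a difference that the pattern itself chose. Their GTPase and class I medians were level, at -0.030 and -0.052. The 410 were deeper (median 13297.5 against 6123 UMIs) and carried more erythroid transcript (2922 against 205 CPM). Of the 18224 erythroid UMIs in all 592 selected barcodes, 7894 came from 1 barcode, and 14 barcodes had at least 3.

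The 53 selected barcodes of db/db with salt were set against the 2780 other endothelial barcodes of that library. Over 8363 genes 100 were higher (1.20%) and 201 lower (2.40%). Interferon GTPases were higher (median 0.81, 7 of 10), with Iigp1 at 343 CPM (307 to 382) and 115 CPM, and type I targets were higher (median 0.75, 18 of 25), with Ifit1 at 182 and 51.3 CPM and Ifit3 at 144 and 43.1 CPM. The class I list had a median of 0.11 and 0 of 22 genes past 1.5-fold. B2m was at 1482 and 1274 CPM and Tap1 at 41.3 and 31.5 CPM. Arterial genes were lower as in db/+ (median -0.93, 9 of 12), with Fbln5 at 18.0 and 114 CPM. At matched depth these medians were 0.77, 0.95, 0.17 and -0.91 for GTPases, type I targets, class I and arterial genes. Cxcl1, a neutrophil chemokine, was at 54.0 and 13.0 CPM (1.47). Of its 51 UMIs 13 came from 1 barcode, without which the ratio was 1.17. Ccl2 was at 93.1 and 3.51 CPM, but 85 of its 88 UMIs came from 1 barcode. Leukocyte markers summed to 508 CPM in the selected barcodes, with 479 of 480 UMIs in 1 barcode, 409 of them Lyz2. Scrublet did not mark that barcode. Without the 2 barcodes with a Ptprc UMI the sum was 0 CPM.

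Set side by side, the selected barcodes of db/db with salt had lower class I and GTPase levels than those of db/+. Over 8239 genes 281 were higher (3.41%) and 277 lower (3.36%), with a median of 0.046. The small number of barcodes, 945043 UMIs against 7541573, limits the precision of single genes. All 13 measured GTPases outside the rule were lower (median -1.20) and 16 of 23 class I genes were lower (median -1.13). H2-Q7 was at 40.2 CPM (28.5 to 55.2) and 457 CPM (442 to 473), a log2 ratio of -3.22. B2m was at 1482 and 3980 CPM, H2-K1 at 833 and 2572 CPM and Tap1 at 41.3 and 228 CPM. Type I targets differed less (median -0.32, 6 of 28 lower). Ifit1 went the other way from this median, at 182 and 167 CPM. Of its 172 UMIs in the selected barcodes of db/db with salt, 36 came from 1 barcode. Zbp1, a sensor of Z-form nucleic acid, had 0 UMIs in db/db with salt, which by the same limit of 3 UMIs allows up to 3.17 CPM, and was at 67.0 CPM in db/+. When db/+ was reduced to 53 barcodes matched on total UMIs (median 16408), the medians were -1.08 for GTPases, -0.92 for class I and -0.55 for type I targets.

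Other groups also differed between the selected barcodes of the libraries. Cell cycle genes were lower in db/db with salt (median -1.43, 8 of 10), with Mki67 at 6.35 and 84.1 CPM and Top2a at 2.12 and 77.7 CPM. In both libraries the UMIs of these genes came from few barcodes. A UMI of Mki67 was in 3.77% of the 53 of db/db with salt and in 8.61% of those of db/+. Cyp26b1, which degrades retinoic acid, was at 530 CPM (485 to 579) in db/db with salt and 29.6 CPM (25.8 to 33.7) in db/+, a log2 ratio of 3.77. Fbln2 stood at 320 and 94.1 CPM (1.66), Fmo2, a monooxygenase, at 296 and 92.7 CPM (1.58), Spock2, a proteoglycan, at 61.4 and 5.57 CPM (2.20) and Entpd1 (CD39) at 84.6 and 30.2 CPM (1.23). Of 12 vascular tone genes 5 were higher and 1 lower (median 0.37), of 11 junction genes 4 were higher (0.29) and of 13 capillary genes 2 were higher (0.34). Erythroid markers summed to 193 and 2416 CPM, or to 7.64 and 1374 CPM without the barcode that held the most of them in each.

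The libraries also differed outside the selection. Fewer genes passed 1.5-fold there, but the groups are larger, so the numbers of genes cannot be compared. In db/db with salt, barcodes with 0 or 1 of the 6 genes held 14101214 UMIs, all other endothelial barcodes 21959268 and the selected ones 945043. In endothelial barcodes with 0 or 1 of the 6 genes (2134 in db/db with salt, 1583 in db/+), 41 of 8392 genes were higher in db/db with salt (0.489%) and 42 lower (0.500%). The class I median was -0.38 with 8 of 22 lower, the GTPase median -0.50 with 1 of 10 lower and the type I median -0.47 with 8 of 24 lower. H2-Q7 was at 40.5 and 177 CPM (-1.89), Bst2 (tetherin) at 230.0 and 666 CPM (-1.49) and Cyp26b1 at 337 and 17.7 CPM (3.65). Over all other endothelial barcodes, 38 of 8425 genes were higher (0.451%) and 100 lower (1.19%), with all 12 measured GTPases lower (median -1.33) and 14 of 22 class I genes lower (-0.83). H2-Q7 in db/db with salt was thus close in barcodes with 0 or 1 of the genes (40.5 CPM) and in the selected ones (40.2 CPM). Library, genotype and salt cannot be told apart here.

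**Figure D5:**
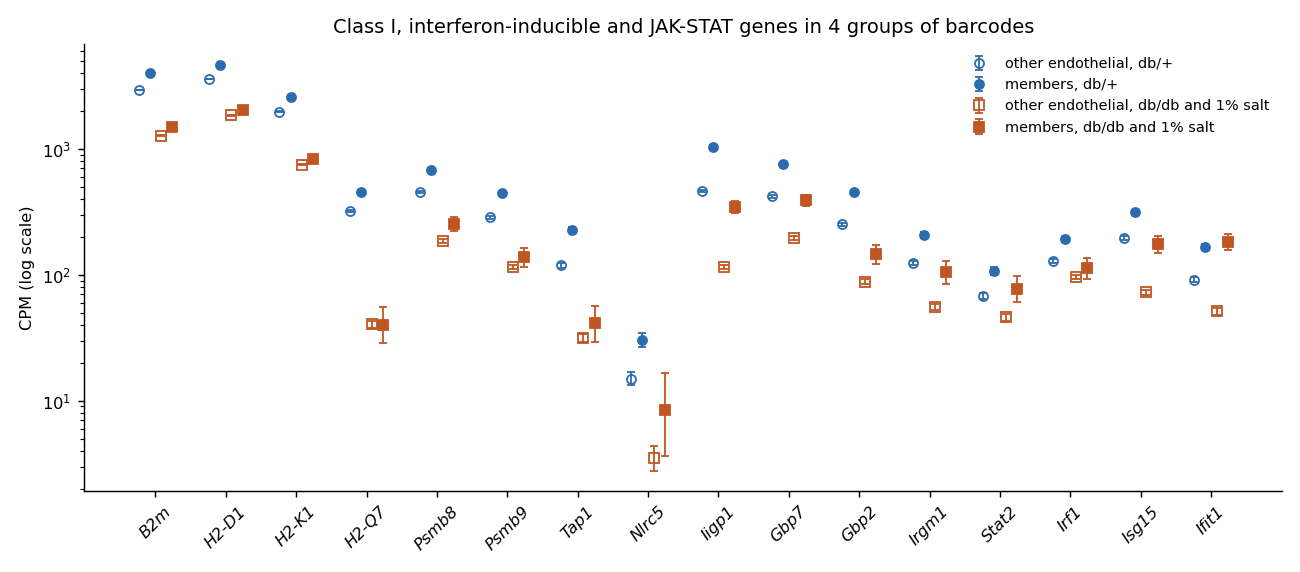
CPM (y axis, log scale) of 16 class I, interferon-inducible and JAK-STAT genes (x axis) in other endothelial barcodes (open) and selected barcodes, called members (filled), of db/+ (blue circles) and db/db and 1% salt (orange squares), with exact Poisson 95% intervals. Tap1 is at 228 CPM in the selected barcodes of db/+ and 41.3 CPM in those of db/db and 1% salt. Ifit1 is at 167 and 182 CPM, with 36 of its 172 UMIs in the latter from 1 barcode.

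Transcripts of the interferons looked at were almost absent from these libraries, and which signal raised the genes of the rule was not tested. Ifng had 1 UMI in all db/+ barcodes, none of it in a selected one, and 0 in db/db with salt, and Ifnb1, Ifna4 and Ifnl2 had 0 in both. Ptprc had 61 and 102 UMIs in the whole libraries, from which CD45-positive cells had been depleted, so cells that usually make interferon-gamma, T and natural killer cells, were largely outside the measurement. Of other cytokines, Tnf had 343 UMIs in db/+, 128 of them in selected barcodes, and 315 in db/db with salt, 30 of them in selected barcodes. Il15 had 994 and 796 UMIs, 220 and 25 of them in selected barcodes.

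The promoters of the genes that were higher in the selected barcodes of db/+ held the response element often. Of 43 such genes 28 had an entry in the RefSeq table, and 18 of these (64.3%) held the response element on either strand, against 3.99% of all 27025 genes and 6.10% of the 82 lower genes with an entry. TTCNNNGAA was in 7 of the 28 (25%), in 9.55% of all genes and in 4.88% of the lower genes. The 2 with the joint arrangement were Irgm2 and Tgtp1. B2m has a response element 139 bases before its start, Psmb8 a gamma-activated site 97 bases before, Irf1 a gamma-activated site 90 bases before and Cxcl10 a response element 213 bases before. Of the 6 genes of the rule 5 had an entry, of which Igtp and Tgtp2 held both patterns and Cxcl9, Cd274 and Ubd neither. The Ifit, Gbp and immunity-related GTPase genes belong to families of similar genes, so their promoters are not independent of each other.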

How the data were processed

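Single-cell 3' RNA libraries of heart cells, 1 of db/+ and 1 of db/db mice with 1% salt, held 44935235 and 40974634 UMIs. What was deposited is a matrix of unnormalized UMI counts for each barcode, from Cell Ranger 6.0.2 per the file headers. Per the submitters' processing notes, the genome was GRCm38 and Seurat was also used; the strand setting and the calling of cell barcodes remain not given in the sources used here. Symbols shared by several entries (71 of 31053) were left out. Counts were summed per group with Python 3.11.15 and scanpy 1.11.5, scaled to CPM, and compared as log2 of CPM plus 10 for genes with a mean of at least 10 CPM; 1.5-fold counted as higher or lower. Doublets were called with Scrublet and left in. Coordinates are from GENCODE, promoters from RefSeq.

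The members and lists were chosen with earlier results of these data known. Named genes were the 12 highest and 12 lowest ratios among genes with at least 50 CPM, 30 UMIs and a UMI in 5% of barcodes, up to 4 per list, and the 6 highest and lowest of the other comparisons, leaving out the rule's own genes and those of mitochondria, ribosomal proteins, haemoglobins and unnamed models (Gm, Rik). Other list members, such as B2m, H2-K1, H2-D1, Icam1, Apln and the receptors, were named after their values were seen. Alternatives covered the rule's limits, thinning, the pseudocount, the level filter, scaling (TMM of edgeR 4.0.16), barcode means and the comparison barcodes. The code was checked on simulated counts. Some items are not reported here.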

Additional observations from a re-analysis of the deposited data

How the results depend on the processing

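The direction of the GTPase, class I and arterial lists in db/+ was the same under every alternative run, and their size was not. With at least 3 of the 6 genes required, the shares were 27.7% and 8.40%, 28 genes were higher, and the GTPase and class I medians 0.55 and 0.26; with at least 5, the shares were 8.29% and 0.247% and the class I median 0.45. With no class II gene allowed, the db/+ share was 15.2%. With no class II limit it was 23.5%, with 100 genes higher, 53 lower and medians of 1.26, 0.68 and -0.46 for GTPases, class I and arterial genes. The rule on counts thinned to 1500 UMIs gave 1.94% and 0.0403%, with 414 genes higher, 699 lower and medians of 1.49, 0.84 and -0.61 over 54 barcodes. A pseudocount of 1 CPM gave 68 and 172 genes, and one of 50 CPM gave 15 and 27, with GTPase and arterial medians of 0.51 and -0.53. Means over barcodes gave GTPase and class I medians of 1.07 and 0.54. A minimum of 50 CPM left 42 lower genes and an arterial median of -0.61. The comparison with 0 or 1 of the 6 genes gave 115 higher genes and medians of 1.63 and 0.82, that with at most 1 class II gene (added after seeing the data) 86 and 70 genes and medians of 1.25, 0.66 and -0.47, and leaving out smooth muscle transcripts (also added) an arterial median of -0.58. The cause of these shifts was not tested.

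For 107 pairs of a comparison and a named gene past 1.5-fold, 2401 values were computed, and 14 changed sign. A gene counts once per comparison, and genes of the rule, named as a description, are included. Without the class II limit Cd74 was at 1.27, H2-Aa 1.29, H2-Ab1 1.19, H2-Eb1 1.11 and Nr2f2 0.021. Against barcodes with at most 1 class II gene H2-Aa was at 0.098, H2-Ab1 0.22 and H2-Eb1 0.013. Without smooth muscle transcripts Tagln was at 0.013 against class II-positive barcodes, and Acta2 and Tagln at 0.022 and 0.025 against type I barcodes. Between the libraries' selected barcodes Ccl2 was at -0.011 with 3 of 6 genes required and -1.73 without its top barcode; within db/db with salt it was then at -0.023. With under 20 barcodes in a group (7 with at least 5 genes and 1 after thinning in db/db with salt, 10 class II-positive after thinning) no value was computed, nor for the class II comparison without the class II limit. No paired analysis was possible because each group is 1 library. The number of barcodes limits the 53 of db/db with salt, where 3 UMIs are 3.17 CPM.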
